A study of Xenopus laevis with 6 samples.

Results

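The Kdm3 family of histone demethylases was followed in *Xenopus laevis* embryos injected with antisense morpholino oligonucleotides (MOs). Its members were taken as all rows of the deposited count table whose symbol, without the homeolog suffix, reads *kdm3a*, *kdm3b* or *jmjd1c*. This gave 6 of 35773 gene models, namely an L and an S copy of each of the 3 genes. Polyadenylated RNA was sequenced from whole embryos at Nieuwkoop-Faber (NF) stage 32, with 2 control libraries, 2 kdm5c MO libraries and 2 kdm3a MO libraries. The morphants were injected at the 2-cell stage per the labels, which do not state the strain, what the controls received or how many embryos made up a library. A later date stands in the titles of both kdm3a MO libraries than in the other 4, so date and kdm3a MO cannot be told apart.

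Kdm3 proteins carry a JmjC domain, which uses iron, oxygen and 2-oxoglutarate to take methyl groups off histone H3 lysine 9, a mark of repressed chromatin. They act on the mono- and dimethylated lysine, and loss of the mark is linked to active transcription. *kdm3a* is induced by hypoxia in human cells and is needed in mouse for sperm maturation and energy metabolism, *kdm3b* encodes a close relative, and the demethylase activity of the *jmjd1c* product is disputed. *X. laevis* is an allotetraploid, so most genes exist as 2 homeologs, L on the long and S on the short chromosome of a pair. An MO binds its target RNA and blocks translation or splicing without cleaving the RNA. The labels do not say which kind the kdm3a MO is, so levels of *kdm3a* mRNA do not check whether the protein was depleted.

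The libraries held 12838245 to 20217436 counts. Levels are given as CPM (counts scaled to libraries of equal size) after TMM scaling, which corrects library size for differences in RNA composition. That factor lay between 1.02 and 1.16 in 5 libraries and at 0.710 in kdm5c MO 1. Control 1 stood apart from the others in markers of some tissues that form by its labelled stage. Its summed level of 4 lens crystallin genes was 0 CPM, against 12.8 to 115 CPM elsewhere. Its 4 pigment cell genes summed to 0.938 CPM, against 117 to 264 CPM, and its skeletal muscle genes to 3741 CPM, against 8865 to 29680 CPM. Its notochord and heart sums were lowest too, at 725 and 40.1 CPM against 898 to 1694 and 52.2 to 111 CPM. Other lists set it apart less. Neural genes were at 385 CPM beside 434 CPM in kdm3a MO 4, and blood genes at 7.37 beside 8.27 CPM in kdm3a MO 3. Epidermal genes, at 6968 CPM, lay within the 4499 to 13158 CPM of the others. The part of these marker differences in the results was not tested, and comparisons with control are given again without control 1, where the lone control is assumed to vary like the other group. In whole embryos, fewer cells of a type and less RNA per cell cannot be told apart. A gene was called changed in a comparison by edgeR's exact test where its adjusted p was below 0.01 and its fold above 4.

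The first question was what the targeted gene's own transcripts did. *kdm3a.L* (Xelaev18005003m), the L copy of the hypoxia-inducible demethylase, was at 122 and 78.2 CPM in the controls, 61.5 and 68.6 CPM in the kdm5c MO libraries, and 408 and 374 CPM in the kdm3a MO libraries. Both kdm3a MO libraries lay far above the other 4, and neither kdm5c MO library reached the lower control. These levels rest on 609 to 8588 counts per library, so counting error is small beside the gap between the kdm3a MO libraries and the other 4. Group means were 100 ± 30.9 CPM in controls, 65.1 ± 5.01 CPM in kdm5c MO and 391 ± 24.4 CPM in kdm3a MO (SD, n = 2). The kdm3a MO mean was 3.91 times the control mean and 6.01 times the kdm5c MO mean.

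The S copy, *kdm3a.S* (Xelaev18008842m), was at 262 and 146 CPM in controls, 127 and 95.2 CPM in kdm5c MO, and 432 and 239 CPM in kdm3a MO. Here the lower kdm3a MO library lay below the higher control, so those groups overlapped. The 2 libraries of a group differed 1.79-fold in controls and 1.81-fold in kdm3a MO, against 1.56-fold and 1.09-fold for *kdm3a.L*. The kdm3a MO mean of 335 ± 136 CPM was 1.64 times the control mean of 204 ± 81.7 CPM (SD, n = 2).

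**Figure D1:**
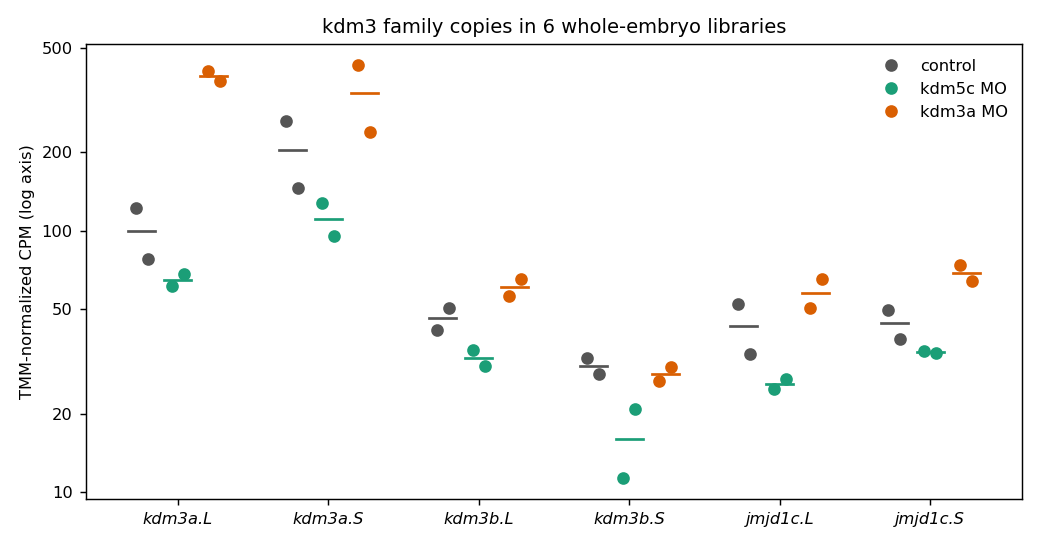
Level of each of the 6 family members in each of the 6 libraries, in TMM-scaled CPM on a log axis; points are libraries and horizontal bars are group means (n = 2). *kdm3a.L* is the member whose kdm3a MO libraries, at 408 and 374 CPM, lie farthest above its controls at 122 and 78.2 CPM.

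*kdm3b.L* (Xelaev18017351m), a copy of the second H3K9 demethylase gene, was at 41.7 and 50.7 CPM in controls, 35.0 and 30.4 CPM in kdm5c MO, and 56.4 and 65.5 CPM in kdm3a MO. The 3 groups did not overlap, but they were separated by small steps. *kdm3b.S* (Xelaev18021330m) was at 32.6 and 28.2 CPM in controls, 11.3 and 20.8 CPM in kdm5c MO, and 26.6 and 30.0 CPM in kdm3a MO. This copy was the member with a kdm3a MO mean below its control mean, at 28.3 ± 2.40 against 30.4 ± 3.05 CPM (SD, n = 2). Its kdm5c MO libraries differed 1.84-fold from each other, the widest gap between replicates in the family.

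*jmjd1c.L* (Xelaev18034486m), a copy of the third gene, was at 52.5 and 33.9 CPM in controls, 24.9 and 27.1 CPM in kdm5c MO, and 50.6 and 65.2 CPM in kdm3a MO. Its kdm3a MO and control libraries overlapped, and both kdm5c MO libraries were lowest. *jmjd1c.S* (Xelaev18036811m) was at 49.9 and 38.6 CPM in controls, 34.6 and 34.0 CPM in kdm5c MO, and 74.2 and 64.0 CPM in kdm3a MO. Its groups did not overlap, and its kdm5c MO libraries were within 1.02-fold of each other.

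Set against controls, kdm3a MO embryos showed a higher *kdm3a.L* transcript level and smaller differences in the rest of the family. The log2 fold change of *kdm3a.L* was 1.94 (SE 0.62), with p = 0.00277 and adjusted p = 0.442 by the exact test of edgeR. That of *kdm3a.S* was 0.69 (SE 0.68, adjusted p = 1). For the other 4 members it ran from -0.13 (SE 0.57) for *kdm3b.S* to 0.62 (SE 0.57) for *jmjd1c.S*. None of the 6 members was called, beside 33 of 26491 genes or 0.125% of those tested. At an unadjusted p below 0.05, 1 of 6 members was higher, against 1.92% of all genes. Groups did not overlap, with kdm3a MO higher, for *kdm3a.L*, *kdm3b.L* and *jmjd1c.S*, 3 of 6 against 17.1% of all genes. The median over the 6 members was 0.51, beside -0.02 over all genes tested. Without control 1, *kdm3a.L* had a log2 fold change of 2.31 (adjusted p = 0.977 by the same test), *kdm3a.S* 1.18, *jmjd1c.S* 0.82, *jmjd1c.L* 0.76, *kdm3b.L* 0.25 and *kdm3b.S* -0.01, with a median of 0.79. Scaled by library size alone, groups did not overlap for 2 of 6 members, against 15.7% of all genes. DESeq2 gave *kdm3a.L* an adjusted p of 0.0458, also short of the limit.

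Set against the same controls, the kdm5c MO libraries had lower levels of every member, none of which passed the test. The log2 fold change was -0.62 (SE 0.63) for *kdm3a.L*, -0.87 (SE 0.67) for *kdm3a.S*, -0.50 (SE 0.59) for *kdm3b.L*, -0.92 (SE 0.65) for *kdm3b.S*, -0.73 (SE 0.61) for *jmjd1c.L* and -0.37 (SE 0.59) for *jmjd1c.S*. By the exact test of edgeR the adjusted p was 1 for each. All 6 members had groups that did not overlap, with kdm5c MO lower, against 17.8% of all genes. At an unadjusted p below 0.05, 0 of 6 were lower, against 1.01% of all genes. No gene at all was called (0 of 26152, or 0%), although 1123 genes had an unadjusted p below 0.05 and DESeq2 likewise called 0. The median over members was -0.67, beside -0.02 over all genes, and it was -0.39 without control 1 (members from -0.81 to -0.17). Scaled by library size alone it was -0.98, beside -0.34 over all genes. With that scaling 6 of 6 members were lower without overlap, against 28.0% of all genes.

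Between kdm3a MO and kdm5c MO, every member was higher in kdm3a MO. For *kdm3a.L* the log2 fold change of kdm3a MO over kdm5c MO was 2.58 (SE 0.55), with p = 1.24e-05 and adjusted p = 0.0202 by the exact test of edgeR, which misses the limit of 0.01. For *kdm3a.S* it was 1.58 (SE 0.60, p = 0.0108, adjusted p = 0.761) and for *jmjd1c.L* 1.15 (SE 0.53, p = 0.0335, adjusted p = 0.993), both by the exact test of edgeR. The other 3 members ran from 0.81 (SE 0.61) for *kdm3b.S* to 1.0 (SE 0.52) for *jmjd1c.S*. Thus 0 of 6 members were called, beside 14 of 26092 genes or 0.0537%. At an unadjusted p below 0.05, 3 of 6 were higher, against 1.52% of all genes, and 6 of 6 were higher without overlap, against 18.4%. Scaled by library size alone, 5 of 6 were higher at an unadjusted p below 0.05, beside 663 of 26092 genes. With that scaling 6 of 6 were higher without overlap, against 27.0% of all genes. The median log2 fold change over all genes was then 0.34, beside 0.03 with TMM scaling. The call on *kdm3a.L* depends on the fit, since it passed with library size scaling (adjusted p = 0.00874) and with DESeq2 (adjusted p = 0.000511), had an adjusted p of 0.0537 with edgeR's other dispersion estimate, and reached an adjusted p of 0.999 with its quasi-likelihood test. Library size scaling and DESeq2 called 12 and 22 of 26092 genes. Both groups are morphants here, so the difference does not say which of them departed from controls.

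**Figure D2:**
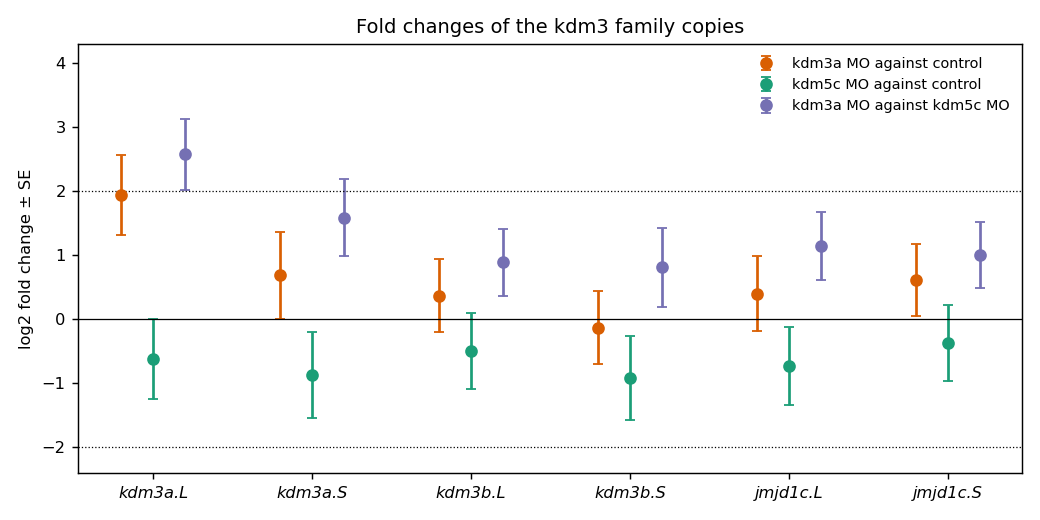
Log2 fold change of each member in the 3 comparisons, with bars of 1 SE computed from edgeR's dispersions. The values for *kdm3a.L* reach 1.94 against control and 2.58 against kdm5c MO, and all 6 values of kdm5c MO against control lie below 0.

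With the L and S copies summed, each gene had its lowest levels in kdm5c MO and its highest in kdm3a MO. *kdm3a* summed to 384 and 224 CPM in controls, 189 and 164 CPM in kdm5c MO, and 840 and 613 CPM in kdm3a MO. *kdm3b* summed to 74.3 and 78.9, then 46.3 and 51.2, then 83.1 and 95.6 CPM in the same order. *jmjd1c* summed to 102 and 72.5, then 59.4 and 61.0, then 125 and 129 CPM in that order. This order of groups, noticed in these data and then counted, held without overlap for 3 of 3 summed genes, against 1.4% of 17722 summed symbols. It held for 3 of 6 single copies (*kdm3a.L*, *kdm3b.L* and *jmjd1c.S*), against 1.32% of 25228 rows. Scaled by library size alone, it held for 2 of 3 genes, with *kdm3b* lost, against 2.40% of symbols, and for 2 of 6 copies, with *kdm3b.L* lost, against 2.61% of rows.

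The whole family summed to 560 and 376 CPM in controls, 294 and 276 CPM in kdm5c MO, and 1048 and 838 CPM in kdm3a MO. The kdm3a MO sum was 2.01 times and the kdm5c MO sum 0.609 times the control sum, or 1.01 and -0.72 as log2 ratios. Without control 1 these log2 ratios were 1.33 and -0.40, and with scaling by library size alone 1.0 and -1.04. With that scaling the median log2 fold change over all genes was -0.34 in kdm5c MO against control. Exact permutation tests of these sums between pairs of groups gave p = 0.33 (two-sided), the smallest that 2 against 2 libraries allow. Across the 3 groups the exact permutation p was 0.0667 for the family and for each gene, again the smallest possible, and 0.117 after Benjamini-Hochberg adjustment over 7 such tests.

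The share of *kdm3a* counts on the L copy needs no scaling between libraries. It is a share of counts, not corrected for transcript length or for how reads were divided between the copies. It was 31.8% (Wilson 95% interval 30.6 to 33.0) and 34.9% (33.4 to 36.4) in controls. In kdm5c MO it was 32.6% (30.5 to 34.8) and 41.9% (39.8 to 44.0), and in kdm3a MO 48.6% (47.9 to 49.4) and 61.0% (60.0 to 62.0). Both kdm3a MO libraries thus held a larger L share than any other library, although they also differed from each other by more than counting error. The mean difference was 21.5 percentage points against control and 17.6 points against kdm5c MO, with an exact permutation p of 0.33 (BH-adjusted 0.75 over 9 tests), the smallest possible. Without control 1 the difference from control was 19.96 points. Without kdm3a MO 4 it was 15.3 points against control and 11.4 points against kdm5c MO, and the latter was 23.8 points without kdm3a MO 3. As a description, 161 of 5717 homeolog pairs with at least 100 counts (2.82%) had a difference at least as large between kdm3a MO and control. Separation alone was common. The groups did not overlap in L share, in either direction, for 35.6% of these pairs in kdm3a MO against control and 28.6% against kdm5c MO. For *kdm3a* the across-group exact permutation p was 0.133 (adjusted 0.187).

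**Figure D3:**
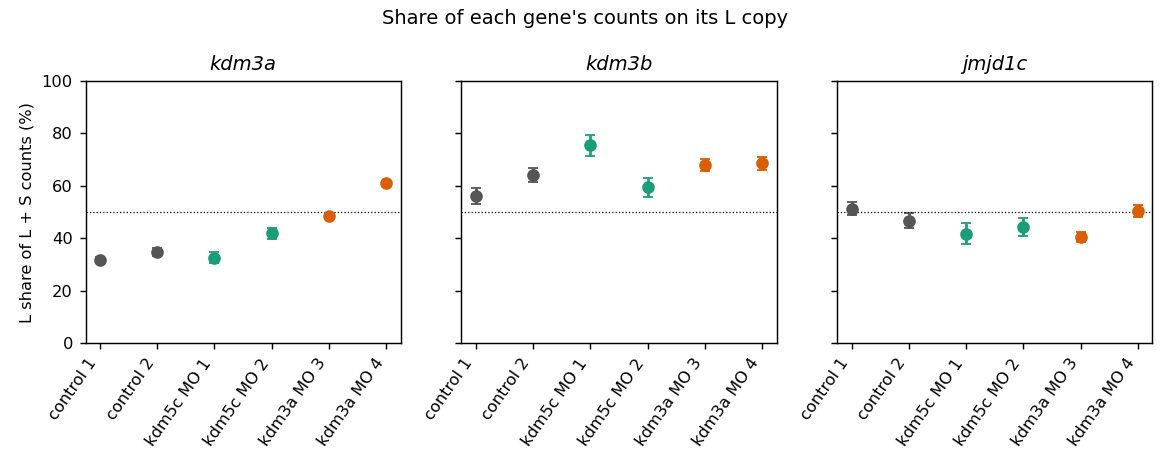
Share of each gene's L plus S counts that came from the L copy, in percent, for each library, with Wilson 95% intervals that cover counting error only. For *kdm3a* the kdm3a MO libraries sit at 48.6% and 61.0%, above the 4 others at 31.8% to 41.9%.

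The other pairs kept no such order. The L share of *kdm3b* was 56.2% and 64.2% in controls, 75.5% and 59.4% in kdm5c MO, and 67.9% and 68.6% in kdm3a MO. The L share of *jmjd1c* was 51.3% and 46.8%, then 41.8% and 44.3%, then 40.6% and 50.5%. The difference of largest size between groups was 8.06 points for *kdm3b* and -5.93 points for *jmjd1c*, and 5 of the differences over the 3 genes changed sign when 1 library was left out. Within the family, *kdm3a* took 68.5% and 59.7% of the counts in controls, 64.1% and 59.3% in kdm5c MO, and 80.2% and 73.2% in kdm3a MO. The log2 ratio of *kdm3a.L* to the summed counts of *kdm3b* and *jmjd1c* was between -0.95 and -0.54 in the 4 control and kdm5c MO libraries and 0.97 and 0.73 in kdm3a MO. For *kdm3a.S* the ratio overlapped between groups, at 1.05 and 0.09 in kdm3a MO against 0.57 and -0.05 in controls.

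A further row, *kdm3a-like.L* (Xelaev18005001m), lies outside the family by its symbol. It was near the limit of detection, with 10 and 4 counts in controls, 0 and 6 in kdm5c MO, and 24 and 57 in kdm3a MO. Its log2 fold change of kdm3a MO over control was 2.44 (p = 0.0653, edgeR's exact test, adjusted p = 1). Over kdm5c MO it was 3.34 (p = 0.0418, edgeR's exact test), which did not hold after adjustment. The row was not tested in kdm5c MO against control. How reads were divided between it and *kdm3a.L* is not given in the sources used here, so its counts are uncertain.

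The genes beside each member in the RefSeq annotation (*X. laevis* assembly 10.1, used for names and order only) were then examined, a choice made after the members' values were seen. The neighbourhoods share related genes. A *reep* gene, of a family that shapes the endoplasmic reticulum, stood next to 5 of the 6 members (*reep1.L*, *reep1.S*, *reep2.L*, *reep3.L*, *reep3.S*). An *egr* gene, encoding a zinc finger factor of the immediate early response, stood 2 places from 3 of them. The 5 tested neighbours of *kdm3a.L* within 3 places had log2 fold changes of 0.06 to 0.77 between kdm3a MO and control, below its own 1.94. The 6 neighbours of *kdm3a.S* ran from -0.61 to 0.36. None of these 11 had an unadjusted p below 0.05, a limit that only 849 of all 26491 genes passed, so this does not set them apart. Without control 1 the neighbours of *kdm3a.L* ran from -0.32 to 0.62 and those of *kdm3a.S* from -0.40 to 0.59. *kdm3a-like.L*, whose model number is close to that of *kdm3a.L*, was not among the neighbours matched by name. Its log2 fold change in that comparison, on few counts, was 2.44, above that of *kdm3a.L*.

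Of 25 tested neighbours of all members, 2 had an unadjusted p below 0.05 in that comparison, beside 849 of all 26491 genes. They were the L and S copies of 1 gene, *egr1*, beside *kdm3b*. *egr1.S* was at 0.670 and 0.819 CPM in controls, 2.43 and 0.455 CPM in kdm5c MO, and 17.9 and 8.93 CPM in kdm3a MO. Its log2 fold change was 4.12 (adjusted p = 0.0172, edgeR's exact test), beside -0.13 for *kdm3b.S*. *egr1.L* was at 2.68 and 1.87, then 7.78 and 2.12, then 26.1 and 15.1 CPM, with a log2 fold change of 3.15 (adjusted p = 0.0504, edgeR's exact test). Neither passed the limit of 0.01. Without control 1 the log2 fold changes were 4.0 for *egr1.S* and 3.44 for *egr1.L*, with adjusted p of 0.706 and 0.683 by that test.

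**Figure D4:**
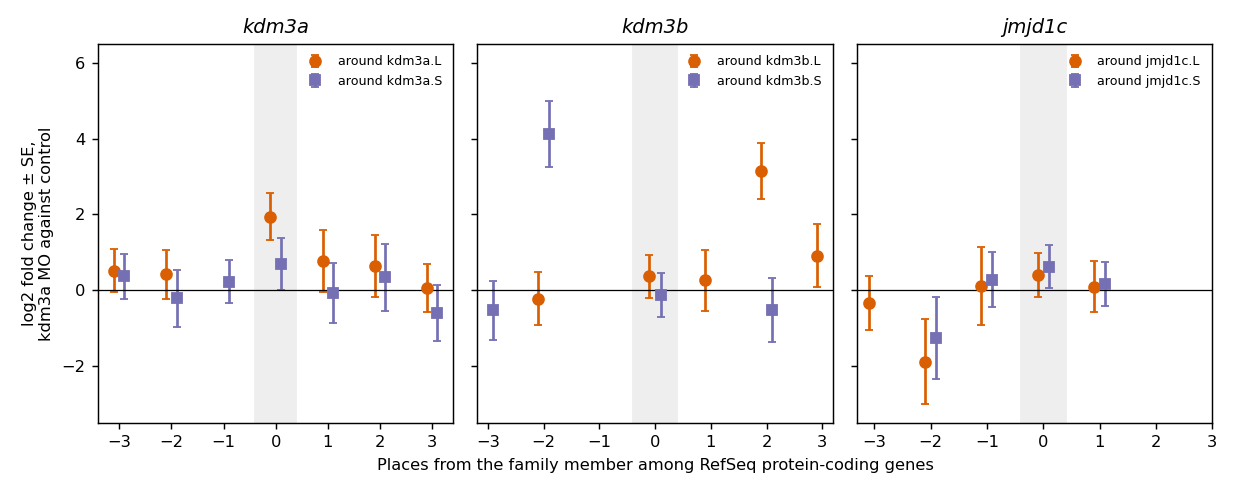
Log2 fold change of kdm3a MO over control, with bars of 1 SE, for each member (place 0, shaded) and its tested neighbours up to 3 places away in RefSeq order. *kdm3a.L* at 1.94 exceeds its tested neighbours at 0.06 to 0.77, and the high points beside *kdm3b* are *egr1.S* at 4.12 and *egr1.L* at 3.15. *kdm3a-like.L* is not drawn.

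The members' levels were also correlated over the 6 libraries, which share group structure and are too few to test here. Pearson's r of log2(CPM + 0.5) between members ran from 0.546 for *kdm3a.L* with *kdm3b.S* to 0.980 for *kdm3a.L* with *jmjd1c.S*. Among 18139 genes, those most like summed *kdm3a* were *jmjd1c.S* (r = 0.999), *fndc3a.2.L* (0.995) and *abhd17a.L* (0.991). Those most like *kdm3b* were *agap1.L* (0.996), *rfx7.S* (0.994) and *rev3l.L* (0.990), and those most like *jmjd1c* were *ap1g1.L* (0.991), *abhd17a.L* (0.990) and *clcn5.L* (0.988). With 18139 genes ranked over 6 points, such high values are selected ones.

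The other enzymes and readers of H3K9 methylation were compared with the family. No copy in these lists, or among the other JmjC proteins, was called in any comparison. Few genes were called at all, so this does not set the lists apart. The shares were 0.125% in kdm3a MO against control, 0% in kdm5c MO against control and 0.0537% in kdm3a MO against kdm5c MO. In the same order, 849 of 26491, 1123 of 26152 and 1213 of 26092 genes had an unadjusted p below 0.05. Of 13 copies of other H3K9 demethylases, 0 had an unadjusted p below 0.05 in edgeR's exact test of kdm3a MO against control, and their median log2 fold change was -0.20, or -0.04 without control 1. In kdm3a MO against kdm5c MO, 1 copy was higher at that limit, *kdm4c.S*, a demethylase of trimethylated H3K9. It was at 25.7 and 45.7 CPM against 10.1 and 16.1 CPM, and controls held 24.0 and 20.3 CPM. Its log2 fold change of 1.44 did not hold after adjustment (edgeR's exact test, p = 0.0254, adjusted p = 0.950). All 13 were below controls in kdm5c MO, with a median of -0.63, 0 of them at an unadjusted p below 0.05, but 11 of 13 with a median of -0.30 without control 1.

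The list of methyltransferases that place the mark, with their partner *wiz*, had a median of -0.46 in kdm3a MO against control over 18 copies. It was -0.23 without control 1. *suv39h2.S*, a trimethylating enzyme, was at 6.90 and 2.92 CPM in controls and 0.475 and 1.49 CPM in kdm3a MO (log2 fold change -2.34, or -1.58 with p = 0.214 without control 1 by edgeR's exact test). Its paralog *suv39h1.L* was at 9.22 and 8.52 CPM in kdm3a MO against 24.5 and 19.3 CPM in kdm5c MO (-1.31). They were the 1 copy of the list in each of those comparisons with an unadjusted p below 0.05, and neither passed adjustment (edgeR's exact test, adjusted p = 1 for both).

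Readers of the mark and their partners had a median of -0.68 over 18 copies in kdm3a MO against control, or -0.50 without control 1. *uhrf1.L*, which links H3K9 methylation to DNA methylation, was at 95.9 and 52.7 CPM in controls, 62.5 and 48.0 CPM in kdm5c MO, and 27.1 and 13.4 CPM in kdm3a MO. Both kdm3a MO libraries were below the other 4, with a log2 fold change of -1.90 against control (edgeR's exact test, p = 0.00605, adjusted p = 0.682). Without control 1 it was -1.40 (p = 0.0601 by the same exact test). Both copies of *cbx3*, which encodes the reader HP1 gamma, had kdm3a MO levels under those of kdm5c MO, *cbx3.S* at 89.3 and 66.2 against 256 and 167 CPM and *cbx3.L* at 75.2 and 89.3 against 239 and 161 CPM. These log2 fold changes were -1.45 and -1.29, and neither held after adjustment (edgeR's exact test, adjusted p = 0.793 and 0.948). Controls held 194 and 95.1 CPM of *cbx3.S* and 237 and 116 CPM of *cbx3.L*. Both kdm3a MO libraries were thus below both controls, with control 2 nearer to them. Against control the log2 fold changes were -0.92 and -1.12, or -0.31 and -0.50 without control 1.

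Among 24 copies of other JmjC genes the kdm3a MO median was -0.15 against control, 0.15 without control 1, and 0.39 against kdm5c MO. In kdm5c MO against control their median was -0.55, with 18 of 24 lower, or -0.32 without control 1. In that comparison the methyltransferase list had a median of -0.30 and the reader list -0.31, with 14 of 18 and 14 of 17 copies lower. Without control 1 these 2 medians were -0.20 and -0.17. *kdm6b.S*, an H3K27 demethylase, was at 355 and 141 CPM in kdm3a MO, 96.8 and 111 CPM in controls, and 80.7 and 69.5 CPM in kdm5c MO. *kdm6a.S*, encoding another H3K27 demethylase, was at 57.8 and 52.1 CPM, 39.2 and 34.0 CPM, and 12.2 and 26.4 CPM in the same order. Their log2 fold changes of kdm3a MO over kdm5c MO were 1.71 and 1.5, neither of which held after adjustment (edgeR's exact test, adjusted p = 0.753 and 0.802). The L copies did not share the size of this difference, at 0.28 for *kdm6b.L* and 0.39 for *kdm6a.L*. Against control the copies went opposite ways, at -0.79 for *kdm6b.L* beside 1.22 for *kdm6b.S*, and -0.19 for *kdm6a.L* beside 0.56 for *kdm6a.S*.

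**Figure D5:**
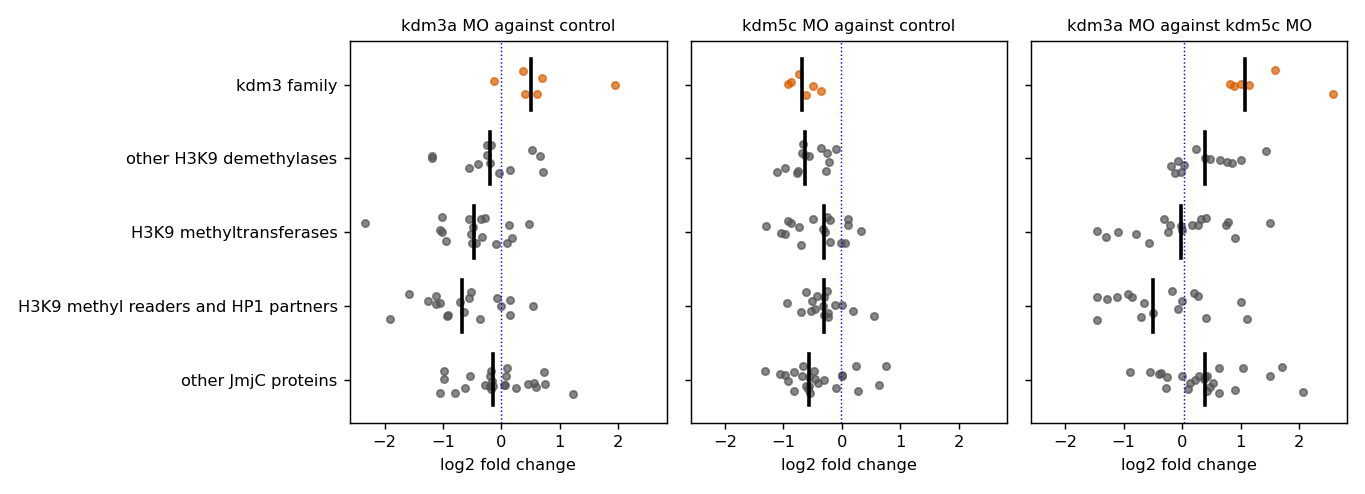
Log2 fold change of each tested copy in the Kdm3 family and 4 lists of chromatin genes for the 3 comparisons, with points for copies, black bars for list medians and a dotted line for the median of all genes. The family has a median of 0.51 in kdm3a MO against control, beside -0.20 for the other H3K9 demethylases and -0.68 for the H3K9 readers.

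Programmes tied to *kdm3a* in mammals showed no called gene, but few genes were called at all. The shares were 0.125% of all genes in kdm3a MO against control and 0% in kdm5c MO against control. Over 33 copies of hypoxia-response genes the median was -0.16 in kdm3a MO against control, with 1 copy higher and 2 lower at an unadjusted p below 0.05. Of all 26491 genes tested, 509 were higher and 340 lower at that limit. Over 27 copies of PPAR and fatty acid oxidation genes the median was 0.21, with 0 copies past that limit in either direction. The corresponding medians in kdm5c MO against control were -0.46 and 0.26. All 4 of these medians changed sign without control 1, to 0.20 for hypoxia and -0.01 for PPAR genes in kdm3a MO and to 0.13 and -0.04 in kdm5c MO.

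The kdm3a MO libraries, with the highest *kdm3a* levels, also held the most RNA of a p53-response list. This list, which an earlier analysis of these data had already shown, summed to 715 and 631 CPM in controls, 906 and 1217 CPM in kdm5c MO, and 2656 and 2548 CPM in kdm3a MO. In kdm3a MO against control 13 of 21 copies were higher at an unadjusted p below 0.05, against 1.92% of all genes, and 1 was lower. In the list 1 copy was called, against 0.125% of all genes, and the median was 1.5, or 2.08 without control 1. The inflammation and acute stress list, also chosen with earlier results of these data known, summed to 196 and 238 CPM, 1440 and 279 CPM, and 2750 and 934 CPM in the same order. In kdm3a MO against control 8 of its 25 copies were called, against 0.125% of all genes, and its median was 3.52, or 3.54 without control 1. The list was also higher in kdm5c MO against control, with a median of 2.16, or 2.77 without control 1. There 11 of 21 copies were higher at an unadjusted p below 0.05, beside 860 of 26152 genes, and 0 were called. Between kdm3a MO and kdm5c MO its median was 1.19, with 0 of 25 copies called, beside 14 of 26092 genes. By the sum of this list kdm5c MO 1, a library with low *kdm3a*, lay above kdm3a MO 4. Muscle RNA was highest in kdm5c MO 1 and kdm3a MO 3, at 29680 and 18945 CPM. The part of these in the levels of the Kdm3 family was not tested.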

How the data were processed

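The deposited table holds raw read counts per gene model, which the authors obtained by aligning reads to *X. laevis* transcripts with BWA (version 0.7.10 per the submitters' processing notes). Of counts from 1 to 20, 89.7% to 95.0% were even, so counting intervals may be too narrow. Replicate numbers follow the titles. The second control is 2 in its title but 3 in its description and in the table's header, and its column was matched by the description. Nothing states that replicates came from separate matings, so p-values measure only the spread between these libraries. Control and kdm5c MO share title numbers that pair only 2 libraries each and were not treated as pairs.

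Each comparison was fitted on its 4 libraries over all genes in edgeR 4.0.16 (R 4.3.3), using filterByExpr, TMM scaling, its exact test and Benjamini-Hochberg adjustment. Calls needed an adjusted p below 0.01 and a fold above 4. The SE of a log2 fold change is not an output of the exact test. It was computed from the group means and each gene's dispersion as estimated by edgeR. The dispersion estimate was changed after results were seen. The first run used common and tagwise dispersions with a prior of 10, and estimateDisp was then taken as the main one because it gave the numbers of called genes of an earlier analysis of these data, and the closing section gives both sets of counts. Levels in the text are CPM scaled by TMM over all 6 libraries. A count of 0 allows up to 3 counts, or 0.143 to 0.303 CPM. Scripts were tested on simulated counts with less spread between libraries and larger changes than those of the members. That test does not show how often a change like that of *kdm3a.L* would be called here.

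The named genes were the 6 members, copies of 4 chromatin gene lists with an unadjusted p below 0.05 (at most 4 per list and comparison), and the 3 genes most correlated with each summed member over 6 libraries. Members and lists were chosen with earlier results of these data known. The order of groups, the homeolog pairs used as background, the share of *kdm3a* in the family, *kdm3a-like.L* and the RefSeq neighbours were chosen after values were seen. Alternatives used DESeq2 1.42.0, edgeR's quasi-likelihood test, other filters, scalings and left-out libraries. Leaving control 1 out of the gene lists and neighbours was added after seeing the data.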

Additional observations from a re-analysis of the deposited data

Results flagged for a closer look

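The row *kdm3a-like.L*, which is not a family member by its symbol, was above its control level in both kdm3a MO libraries, at 1.14119 CPM in replicate 3 and 3.85478 CPM in replicate 4, against 0.67 and 0.23 CPM in controls. It was singled out because it is a signal outside the rows the comparisons were built on. The exact test of edgeR gave it an adjusted p of 1.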

How the results depend on the processing

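No member's log2 fold change changed sign under any alternative run. With common and tagwise dispersions, the estimate used first, 47, 2 and 13 genes were called in kdm3a MO against control, kdm5c MO against control and kdm3a MO against kdm5c MO, in place of 33, 0 and 14, and 0 members under both. In kdm3a MO against control the count was 59 at an adjusted p below 0.05 with no fold limit, 19 with at least 10 counts, 0 with the quasi-likelihood test, 83 with DESeq2 and 10 with all 6 libraries in the fit, and 4 to 358 when 1 library was left out (21 without control 1, 358 without control 2, 4 without kdm3a MO 3, 53 without kdm3a MO 4). In kdm5c MO against control it was 2 at an adjusted p below 0.05, 2 with at least 10 counts, 2 with all 6 libraries, 1 with copies summed, and 0 to 220 with 1 library left out (11 without control 1, 220 without control 2, 40 without kdm5c MO 2). In kdm3a MO against kdm5c MO it was 6 with at least 10 counts, 0 with the quasi-likelihood test, 22 with DESeq2, 0 with all 6 libraries, and 9 to 38 with 1 left out. There 1 member, *kdm3a.L*, passed at an adjusted p below 0.05 with no fold limit (log2 fold change 2.58, adjusted p = 0.0202, edgeR's exact test), with library size scaling (2.88, 0.00874) and with DESeq2 (2.56, 0.000511); its adjusted p was 0.143 to 0.607 with 1 library left out. At an adjusted p below 0.05 with no fold limit, with library size scaling and with DESeq2, 20, 12 and 22 of 26092 genes were called there. The causes were not tested. Differences in L share changed sign with 1 library left out for *kdm3a* (-0.709 to 8.59 points) and *kdm3b* (-0.792 to 15.3) in kdm5c MO against control, for *kdm3b* (-7.28 to 8.85) and *jmjd1c* (-2.52 to 7.38) in kdm3a MO against kdm5c MO, and for *jmjd1c* (-8.45 to 1.45) in kdm3a MO against control. Control and kdm5c MO libraries of the same title number deviated together with r = 0.237 over 27277 genes. With the header's number 3 for the second control, only number 1 would be shared and no block could be fitted. With a replicate block by title number in the quasi-likelihood test 0 genes were called (1081 at an unadjusted p below 0.05). With 2 libraries a group, no exact test of a sum or share could pass 0.05.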
